A study of Mus musculus with 26 samples.

Results

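The genes followed here are 10 genes whose products mark blood platelets: Pf4, Ppbp, Itga2b, Itgb3, Gp1ba, Gp1bb, Gp9, Gp5, Gp6 and P2ry12. They were taken by symbol from the deposited table of raw RNA-seq read counts, in which all 10 were found among 21119 gene symbols. After a filter on low counts, 8 of the 10 were tested among 13884 genes, and Itga2b and Gp5 were not. The libraries came from the aorta of adult C57BL6/J mice wounded by mechanical pressure. The injured 48 h group held 9 libraries of RNA flushed with lysis buffer from the lumen of the wounded abdominal aorta at 48 h, and the injured 3 h group held 5 such flushes from other mice at 3 h. The unwounded thoracic aorta of the mice of the injured 48 h group was flushed for the 9 libraries called uninjured 48 h. The vessel left after the abdominal flush was homogenized for 3 of those mice (E1A, E2A and E3A) and is called tissue 48 h. No genotype other than the strain, and no further treatment, is given for any group. The uninjured flush therefore differed from the injured flushes in aortic segment as well as in wounding, and from the 3 h flush also in time and mouse, and these cannot be told apart. The headers of the deposited tables write 0 h for the 3 h columns, and the sample labels were followed. Each library came from 1 mouse, and the mice fell into 3 experimental batches.

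Platelets are small blood cells without a nucleus, shed by megakaryocytes, and they carry mRNA made by the parent cell. On a damaged vessel wall the GPIb-IX-V complex (Gp1ba, Gp1bb, Gp9 and Gp5) binds von Willebrand factor, and glycoprotein VI (Gp6) binds collagen. The ADP receptor P2Y12 (P2ry12) amplifies the activation, integrin alphaIIb-beta3 (Itga2b and Itgb3) binds fibrinogen and links platelets to each other, and the alpha granules release the chemokines platelet factor 4 (Pf4) and pro-platelet basic protein (Ppbp). Some of these genes are also used by other cells of the vessel. The beta3 chain pairs with integrin alphaV on endothelial and smooth muscle cells, and in the mouse Pf4 and P2ry12 are also transcribed by some macrophages. In these bulk libraries, fewer cells of a type and less RNA per cell cannot be told apart.

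The promoters of 3 of the genes are shown because they stand for the 3 patterns described here: Pf4, at 0 in the uninjured flush and at a like level at 48 h and 3 h; its chromosome 5 neighbour Ppbp, highest at 3 h; and Gp1ba, the 1 gene that was lower at 48 h than in the uninjured flush. Pf4 and Ppbp are separated by 2371 bases. Each sequence runs 5′ to 3′ from 250 bases before to 50 bases after the annotated start, from RefSeq on GRCm38.p6. Capitals mark GATAA, the core bound by GATA factors, and GGAAG, a core bound by ETS factors, on either strand (TTATC and CTTCC), and no marked copies overlap in these 3 promoters. The Pf4 window is chr5:90772185-90772484, the Ppbp window chr5:90768268-90768567 and the Gp1ba window chr11:70638872-70639171, all on the plus strand.
Pf4: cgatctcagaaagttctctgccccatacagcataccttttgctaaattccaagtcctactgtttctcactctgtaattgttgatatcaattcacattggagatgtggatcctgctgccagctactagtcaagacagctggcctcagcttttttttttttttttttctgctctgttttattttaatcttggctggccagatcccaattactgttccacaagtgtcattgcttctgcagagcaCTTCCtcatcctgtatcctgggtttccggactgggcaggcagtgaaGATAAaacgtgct
Ppbp: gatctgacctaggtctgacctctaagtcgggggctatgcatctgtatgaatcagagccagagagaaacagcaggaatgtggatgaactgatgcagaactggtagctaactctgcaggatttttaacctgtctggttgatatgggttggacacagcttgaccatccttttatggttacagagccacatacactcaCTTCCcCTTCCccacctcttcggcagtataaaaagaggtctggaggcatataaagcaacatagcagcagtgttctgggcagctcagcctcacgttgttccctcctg
Gp1ba: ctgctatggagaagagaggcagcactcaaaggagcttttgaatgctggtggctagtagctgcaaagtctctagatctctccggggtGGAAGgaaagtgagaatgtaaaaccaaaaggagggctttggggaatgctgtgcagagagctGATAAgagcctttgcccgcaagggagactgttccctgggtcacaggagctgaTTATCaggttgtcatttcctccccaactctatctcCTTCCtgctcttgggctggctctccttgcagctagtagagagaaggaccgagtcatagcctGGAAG
Promoters were matched for 9 of the 10 genes, and Itgb3 had no entry. GATAA lay in 5 of the 9 (Pf4, Gp1ba, Gp9, Gp5 and Gp6), against 25.4% of 32851 mouse promoters of the same length, and GGAAG lay in 9 of 9, against 71.4%. The copy in Pf4 lies 37 to 41 bases after the start, and the copies in Gp1ba end 99 and 47 bases before it. The Ppbp window held no GATAA, and its GGAAG copies lie on the minus strand with a single base between them. These are matches of letters and are given as a description.

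Totals ran from 3904901 to 11982411 counts in injured 48 h libraries, 2657169 to 4346847 in injured 3 h libraries, 1755773 to 5294304 in uninjured libraries and 13853003 to 15560008 in tissue libraries. The injured 48 h library of mouse E2A had the lowest total of its group, and its median correlation of log2 CPM with the others of the group was 0.822, against 0.885 to 0.955 for the rest. Values are given as CPM, read counts scaled to a common library size after TMM correction, and levels of different genes are compared only per kilobase of exons. As a check of the fractions, the summed level of 10 endothelial markers had a median of 7844 CPM in injured 48 h, 11705 CPM in injured 3 h, 9935 CPM in uninjured and 2500 CPM in tissue libraries. That of 10 smooth muscle markers was 1406, 1347, 541 and 29873 CPM in the same order.

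In the wounded flush at 48 h, Pf4, Ppbp, P2ry12, Itgb3 and Gp1bb rose and Gp1ba fell relative to the uninjured flush, while Gp9 and Gp6 did not pass the test. The Gp1bb call was lost with the mouse as a block, with DESeq2, without 1 library and within each batch, as set out below. Of the injured 48 h libraries, 5 of 9 held 0 counts of Gp1bb. Of the 8 tested genes, 5 were higher, against 24.6% of all tested genes, and 1 was lower, against 18.0% (edgeR quasi-likelihood test, Benjamini-Hochberg adjusted p under 0.05). At 3 h, 6 of the 8 (Pf4, Ppbp, P2ry12, Itgb3, Gp9 and Gp6) were higher than in the uninjured flush, against 16.1% of all tested genes, and 0 were lower, against 11.1%. The call of Gp6 at 3 h was lost when any 1 of 10 libraries, of 14 in the contrast, was left out. It was also lost under 4 other settings and within batches 1 and 2, as set out with that gene. Both contrasts share the uninjured libraries. Between the injured groups, 4 of the 8 (Ppbp, Gp1ba, Gp9 and Gp6) were lower at 48 h than at 3 h, against 8.59% of all tested genes, and 0 were higher, against 9.70%. Both counts of 0 were also 0 at an unadjusted edgeR p under 0.05 and with DESeq2. The genes did not appear as a set in the uninjured flush, where Pf4, Itga2b, Gp1bb and Gp5 had 0 counts while Gp1ba and Itgb3 had medians of 68.9 and 46.1 CPM. The 2 untested genes had 0 counts in every injured 48 h and every uninjured library, so a gene could pass the filter only where some group held it, and the counts over the 8 are a description. The median fitted log2 fold change of the 8 was 3.04 at 48 h over uninjured (1.92 with the genes at 0 in uninjured libraries placed at their bound), against 0.18 over all tested genes. It was 4.34 (3.90 at the bound) at 3 h over uninjured, against 0.00 over all, and -1.34 at 48 h over 3 h, against 0.09 over all.

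**Figure D1:**
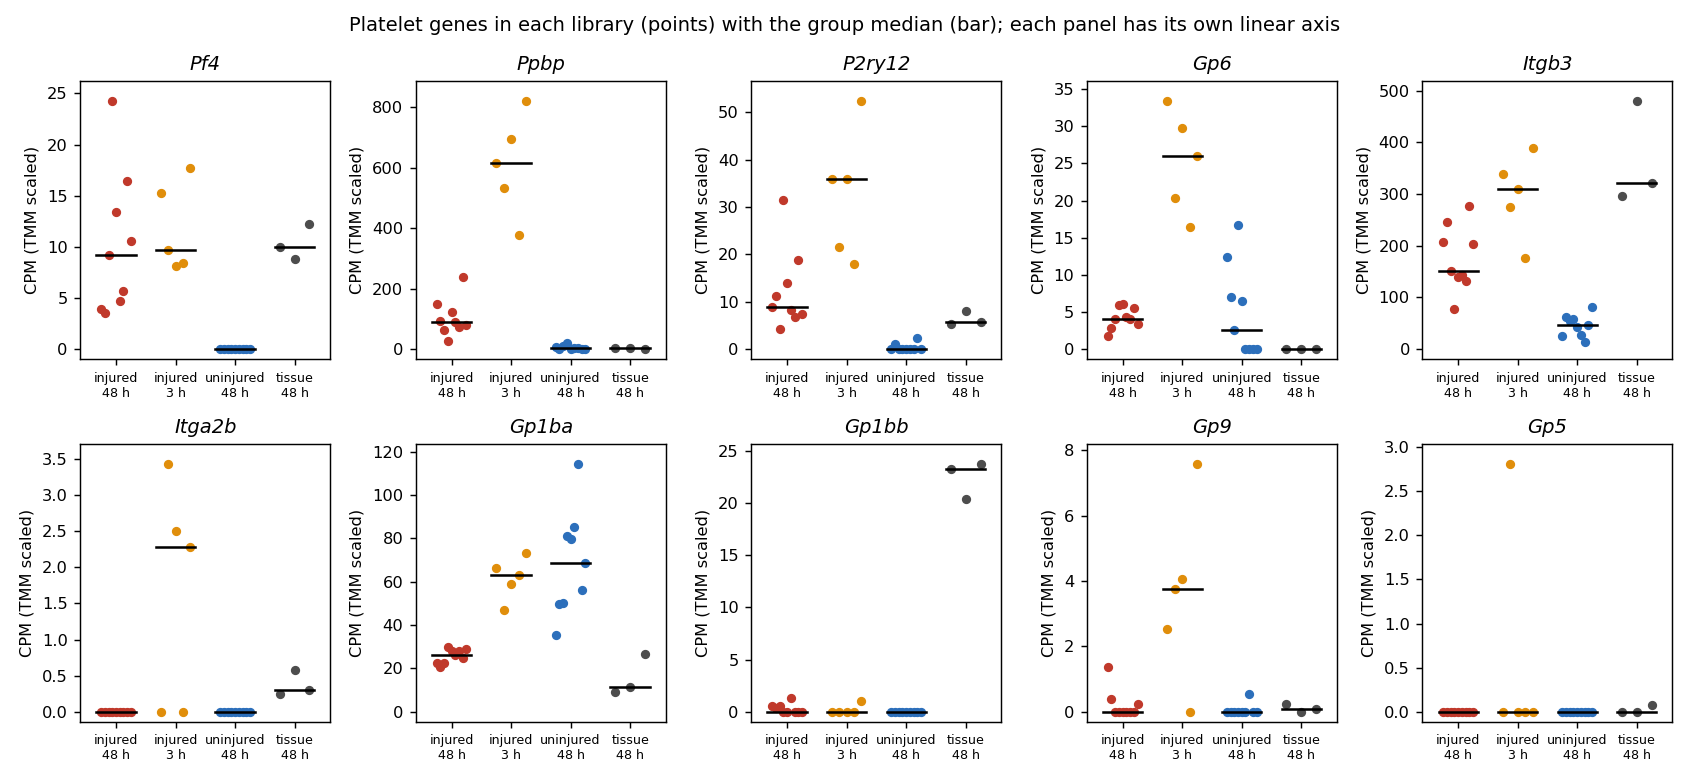
Level of each of the 10 platelet genes in CPM (linear axes, 1 panel per gene) in every library, by group, with the group median as a bar. Pf4 is at 0 in all 9 uninjured libraries, Ppbp is highest in the 5 libraries at 3 h, Gp1bb is highest in the 3 tissue libraries, and the injured 48 h libraries of Gp1ba all lie below the uninjured ones.

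Pf4 encodes platelet factor 4, a heparin-binding chemokine stored in alpha granules. The gene lies at chr5:90772435-90773383 on the plus strand (GRCm38, as for the genes below). Its level in injured 48 h libraries ran from 3.58 to 24.3 CPM with a median of 9.23. The injured 3 h libraries had 15.2, 9.69, 8.13, 8.42 and 17.7 CPM in mice C1A, C1B, C2A, C2C and C3B. The 9 uninjured libraries had 0 counts between them, and the tissue libraries had 9.98, 8.77 and 12.3 CPM in mice E1A, E2A and E3A. The 3 h and tissue ranges lay within the 48 h range, and every injured library lay above every uninjured one. Against a floor of 3 counts over the whole uninjured group, Pf4 was at least 75.8-fold higher at 48 h and at least 108-fold higher at 3 h. The fitted log2 fold changes, which depend on the prior count and are no bound, were 8.94 ± 0.76 (SE) at 48 h and 9.16 ± 0.79 at 3 h (edgeR adjusted p = 9.07e-08 and 1.31e-07). Within batches 1, 2 and 3 the 48 h value was 8.26, 9.29 and 8.95 and the 3 h value 9.36, 8.52 and 9.62, and Pf4 was higher in the injured than in the uninjured segment of 9 of 9 mice. Between 48 h and 3 h the difference was -0.22 ± 0.49 (edgeR adjusted p = 0.809), and between the injured 48 h flush and the tissue it was -0.02 ± 0.58 (edgeR adjusted p = 0.985).

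Ppbp encodes pro-platelet basic protein, the precursor of neutrophil-attracting chemokines. It lies at chr5:90768518-90770063 on the plus strand. It ran from 28.3 to 238 CPM in injured 48 h libraries, with a median of 89.8. At 3 h the libraries of C1A, C1B, C2A, C2C and C3B had 615, 531, 695, 377 and 820 CPM. Uninjured libraries ran from 0 to 20.0 CPM, with a median of 2.30 and 3 libraries at 0, and the tissue libraries had 2.35, 3.62 and 0.977 CPM. The groups stood in the order 3 h, 48 h and then uninjured with no overlap between neighbours, while uninjured and tissue libraries overlapped (a fitted 2.20-fold difference, edgeR adjusted p = 0.217). The log2 fold change was 4.33 ± 0.52 at 48 h over uninjured (edgeR adjusted p = 5.12e-07) and 6.88 at 3 h over uninjured. Within batches the 48 h value was 3.86, 3.53 and 6.16, and batch 2 did not pass on its own (edgeR adjusted p = 0.0779, 3 libraries a group). The 3 h value within batches was 6.31, 6.25 and 8.79, and each passed. Ppbp was lower at 48 h than at 3 h by a log2 fold change of -2.55 ± 0.46, a 5.84-fold difference (edgeR adjusted p = 2.69e-04). That contrast was -2.45, -2.71 and -2.63 within batches 1, 2 and 3, where 2, 2 and 1 libraries stood for 3 h, and only batch 1 passed. Over the tissue, Ppbp was higher by 5.47 ± 0.83 at 48 h and by 8.02 ± 0.94 at 3 h (edgeR adjusted p = 9.88e-06 and 1.83e-07).

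The 2 chemokine genes did not keep a fixed proportion. Per kilobase of exons, Ppbp stood at a median of 8.52 times Pf4 in injured 48 h libraries (range 0.775 to 25.0) and 30.8 times in injured 3 h libraries (26.9 to 56.9). In tissue libraries the ratio was 0.157 (0.0531 to 0.275), so Pf4 exceeded Ppbp there. No ratio exists for uninjured libraries, where Pf4 had 0 counts. The lowest ratio at 48 h was that of mouse E2A, whose library had the lowest Ppbp (28.3 CPM) and the highest Pf4 (24.3 CPM) of its group. The 48 h range lay wholly below the 3 h range and wholly above the tissue range.

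**Figure D2:**
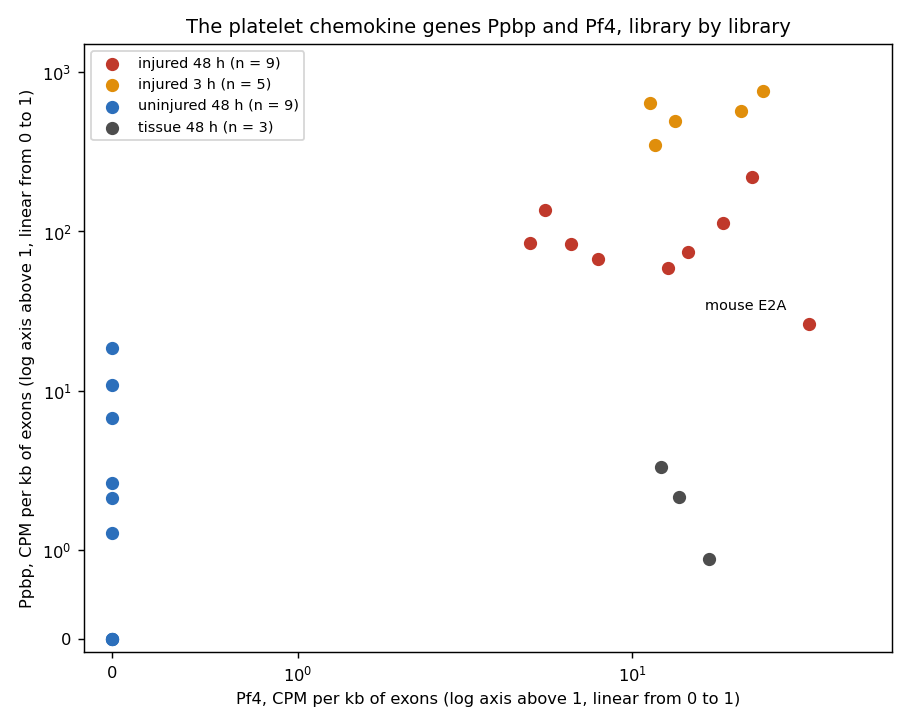
Ppbp against Pf4 in each library, in CPM per kilobase of exons, on axes that are logarithmic above 1 and linear from 0 to 1. The 5 libraries at 3 h lie above the 9 at 48 h for Ppbp, the 3 tissue libraries hold Pf4 with little Ppbp, the uninjured libraries lie at 0 for Pf4, and the 48 h library of mouse E2A lies to the lower right of its group.

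P2ry12 encodes the ADP receptor that is the target of the thienopyridine antiplatelet drugs. It lies at chr3:59216272-59262871 on the minus strand. It ran from 4.32 to 31.4 CPM in injured 48 h libraries, with a median of 8.79. The injured 3 h libraries had 36.0, 21.6, 36.0, 18.0 and 52.4 CPM. Of the 9 uninjured libraries 7 had 0 counts and the other two held 1.09 CPM (E1B) and 2.26 CPM (E3B), and the tissue libraries had 5.19, 7.97 and 5.79 CPM. Every injured library of either time lay above every uninjured one, whereas the 48 h range overlapped both the 3 h and the tissue range. The log2 fold change was 5.26 ± 0.72 at 48 h and 6.68 ± 0.76 at 3 h over uninjured (edgeR adjusted p = 3.18e-06 and 3.43e-07). Within batches 1, 2 and 3 the 48 h value was 4.69, 9.63 and 4.04, and batch 3 did not pass on its own (edgeR adjusted p = 0.116). The 3 h value within batches was 6.47, 10.2 and 6.26, and batch 3, with 1 library at 3 h, did not pass (edgeR adjusted p = 0.0541). P2ry12 was higher in the injured than in the uninjured segment of 9 of 9 mice. Between 48 h and 3 h the difference of -1.42 ± 0.59 did not pass (edgeR adjusted p = 0.0956). It passed without the injured 48 h library of mouse E2A (-1.71, edgeR adjusted p = 0.0393), with DESeq2 (adjusted p = 0.0252) and in an edgeR fit of the 2 groups alone (adjusted p = 0.0130), and the authors' deposited table gives -1.29 with an adjusted p of 0.0265. A 9-base exonic stretch of P2ry12 overlaps Med12l on the opposite strand, and the strand setting of the counting is not given in the sources used here.

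Itgb3 encodes the beta3 chain of the fibrinogen receptor, and it was present in all 26 libraries. It lies at chr11:104608000-104670476 on the plus strand. It ran from 76.8 to 276 CPM in injured 48 h libraries, with a median of 150.2. At 3 h the 5 libraries had 339, 276, 310, 175 and 389 CPM. Uninjured libraries ran from 14.1 to 81.4 CPM, with a median of 46.1, and the tissue had 296, 480 and 322 CPM. The 48 h and uninjured ranges touched only through mouse E2A at 48 h (76.8 CPM) and mouse E3C uninjured (81.4 CPM), and the 3 h and uninjured ranges did not overlap. Itgb3 rose by 1.95 ± 0.27 on the log2 scale at 48 h and by 2.72 at 3 h over uninjured (3.87-fold and 6.59-fold, edgeR adjusted p = 3.43e-06 and 1.82e-07). The 48 h value was 2.12, 1.52 and 2.17 within batches 1, 2 and 3 (edgeR adjusted p = 0.0082, 0.0527 and 0.0457), and Itgb3 was higher in the injured segment of 9 of 9 mice. The 3 h value was 2.68, 2.51 and 3.08 within batches, each past the threshold. It was lower in the injured 48 h flush than in the tissue by -1.06 ± 0.33 (edgeR adjusted p = 0.0144). That call was lost without the tissue library of mouse E2A (-0.82, edgeR adjusted p = 0.131) and with scaling by library totals (-0.80, edgeR adjusted p = 0.0694). Within batches 1, 2 and 3, each with 1 tissue library, the 48 h value over tissue was -0.55, -2.02 and -0.67. At 3 h the difference from tissue was -0.30 ± 0.38 (edgeR adjusted p = 0.564), and between 48 h and 3 h it was -0.77 ± 0.29 (edgeR adjusted p = 0.0676), which passed in a fit of the 2 groups alone (-0.79, edgeR adjusted p = 0.0247).

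Itga2b encodes alphaIIb, the partner of beta3 that platelets and megakaryocytes carry. It had 0 counts in all 9 injured 48 h libraries. At 3 h it had 3.44, 2.50 and 2.28 CPM in C1B, C2A and C3B and 0 in C1A and C2C. All 9 uninjured libraries were at 0, and the tissue libraries had 0.243, 0.580 and 0.301 CPM, from 15 counts in all. Against the 3-count floor, Itga2b was at least 16.3-fold higher at 3 h than in the uninjured group, and at least 45.7-fold lower at 48 h than at 3 h. It failed the filter on low counts and was not in the edgeR fit reported above. In the edgeR fit with no filter (18712 genes) it was higher at 3 h than in uninjured libraries (adjusted p = 0.0112) and lower at 48 h than at 3 h (adjusted p = 0.00709) and than in tissue (adjusted p = 0.0147). The authors' deposited table gives a log2 fold change of 3.85 at 3 h over uninjured with an adjusted p of 0.00140. Per kilobase, mean levels of Itgb3 and Itga2b were 29.6 and 0 CPM at 48 h, 50.5 and 0.301 at 3 h, 7.74 and 0 in uninjured and 62.0 and 0.0687 in tissue libraries, so beta3 stood far above its platelet partner in each group.

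**Figure D3:**
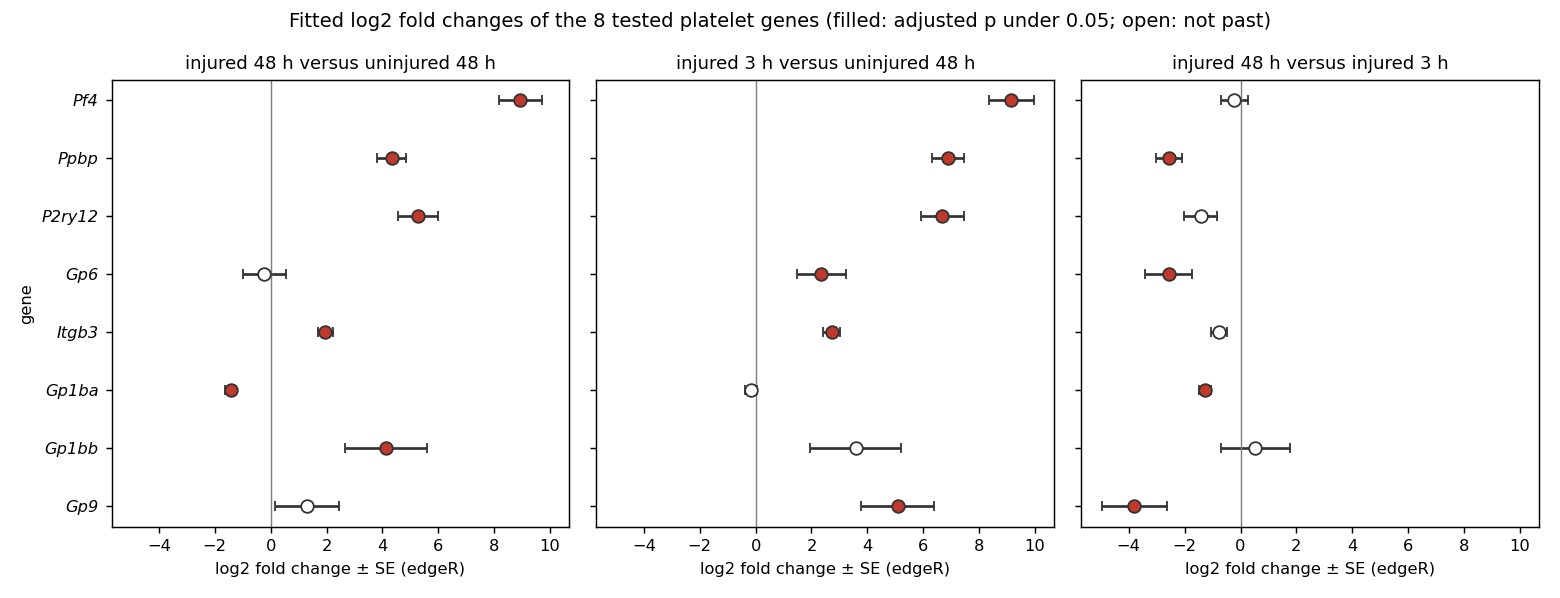
Fitted log2 fold change with its SE for the 8 tested genes in 3 comparisons (edgeR), filled where the adjusted p is under 0.05. Pf4, Ppbp, P2ry12 and Itgb3 lie to the right at both times over uninjured, Gp1ba lies to the left at 48 h over uninjured and at 48 h over 3 h, and the fitted values of Pf4 and Gp1bb over uninjured are set against a group at 0.

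Gp1ba encodes the chain of the GPIb-IX-V complex that binds von Willebrand factor, and it was the 1 tested gene that was lower at 48 h than in the uninjured flush. Gp1ba lies at chr11:70639122-70642036 on the plus strand. It ran from 20.8 to 30.0 CPM in injured 48 h libraries, with a median of 26.1. The injured 3 h libraries had 66.4, 46.9, 59.1, 63.2 and 73.4 CPM. Uninjured libraries ran from 35.4 to 115 CPM, with a median of 68.9, and the tissue had 9.09, 11.7 and 26.6 CPM. All 9 injured 48 h libraries lay below all uninjured and all 3 h libraries, while the 3 h range lay inside the uninjured one. Gp1ba fell by 1.43 ± 0.20 on the log2 scale at 48 h relative to uninjured, a 2.69-fold difference (edgeR adjusted p = 3.48e-06), and it was lower in the injured segment of 9 of 9 mice. The value was -1.01, -1.54 and -1.55 within batches 1, 2 and 3, each of which passed on its own, and it ran from -1.51 to -1.29 when single libraries were left out. Relative to 3 h, Gp1ba was lower at 48 h by -1.26 ± 0.22 (edgeR adjusted p = 2.07e-04), at -1.32, -1.11 and -1.40 within batches, of which batch 3, with 1 library at 3 h, did not pass (edgeR adjusted p = 0.145). At 3 h the difference from uninjured was -0.16 ± 0.23 (edgeR adjusted p = 0.646), with 0.31, -0.43 and -0.15 within batches. It was higher than in tissue in the uninjured flush (2.13 ± 0.31, edgeR adjusted p = 3.64e-06) and at 3 h (1.97 ± 0.32, edgeR adjusted p = 2.43e-05). At 48 h the value over tissue was 0.70 ± 0.28 (edgeR adjusted p = 0.0548), and it passed with the mouse as a block (0.92, edgeR adjusted p = 0.0110), with a batch term (0.78, edgeR adjusted p = 0.00849) and with library totals (0.93, edgeR adjusted p = 0.0143).

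The other subunits of the complex were scarce in the flush. Gp1bb, the chain joined to Gp1ba by disulfide bonds, had 0.531, 0.387, 0.582 and 1.36 CPM in mice E1A, E1B, E1C and E2C at 48 h and 0 in the other 5 injured 48 h libraries. At 3 h it had 4 counts, all in C3B. All 9 uninjured libraries were at 0, and tissue had 23.3, 20.4 and 23.8 CPM. The tissue libraries lay above every flush library. Gp1bb was at least 3.69-fold higher at 48 h than in the uninjured group by the 3-count floor, and the fitted value of 4.12 ± 1.46 passed (edgeR adjusted p = 0.0306). The call was lost with the mouse as a block (4.18, edgeR adjusted p = 0.0756), with DESeq2 (adjusted p = 0.187) and without the injured 48 h library of mouse E2C (3.45, edgeR adjusted p = 0.0567). Within batches 1, 2 and 3 Gp1bb stood at 4.82, 4.50 and 0 in that contrast, and no batch passed on its own. Relative to tissue it was lower by -5.96 ± 1.17 at 48 h and by -6.49 ± 1.58 at 3 h (edgeR adjusted p = 6.05e-04 and 0.00324), and at least 200-fold lower in the uninjured flush. Within batches 1, 2 and 3, each with 1 tissue library, the value over tissue was -5.48, -5.35 and -10.1 at 48 h. At 3 h it was -10.3, -9.86 and -4.56. These counts are uncertain as counts of Gp1bb, because 91.1% of its exonic bases (1902 bases) also belong to exons of Sept5 on the same strand and 41.5% to Gm49601, and how shared reads were assigned is not given in the sources used here.

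Gp9, the small subunit needed for surface display of the complex, had 1.36, 0.387 and 0.253 CPM in mice E1A, E1B and E3C at 48 h and 0 in the other 6 injured 48 h libraries. At 3 h it had 2.54, 3.75, 4.07, 0 and 7.59 CPM. In the uninjured group 1 of 9 libraries held 3 counts, and the tissue libraries had 0.243, 0 and 0.0752 CPM. In 4 of 5 mice at 3 h Gp9 stood above every library of the other groups. The ratio of 3 h over uninjured was 35.5 (exact 95% counting interval 11.6 to 177), and the fitted value was 5.09 ± 1.30 (edgeR adjusted p = 0.00448), at 7.39 and 4.97 within batches 1 and 3, neither of which passed on its own. For 48 h over uninjured the ratio was 2.86 (0.867 to 14.8), and the fitted value of 1.29 did not pass (edgeR adjusted p = 0.360). Gp9 was lower at 48 h than at 3 h by -3.80 ± 1.15 (edgeR adjusted p = 0.0218), a call that was lost without the 3 h library of C3B (-3.33, edgeR adjusted p = 0.0595) and with DESeq2 (adjusted p = 0.0824). Gp5, the subunit that thrombin cleaves, had 9 counts at 3 h, all in C1B, 1 count in tissue and 0 in all injured 48 h and all uninjured libraries. By the floor it was at least 5.24-fold higher at 3 h than in the uninjured group and at least 14.7-fold lower at 48 h than at 3 h, each on that 1 library. In the edgeR fit with no filter the adjusted p was 0.0679 for 3 h over uninjured and 0.0418 for 48 h over 3 h.

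Gp6 encodes glycoprotein VI, the collagen receptor that signals through the Fc receptor gamma chain. It ran from 1.82 to 6.07 CPM in injured 48 h libraries, with a median of 4.08. The injured 3 h libraries had 33.4, 20.3, 29.7, 16.5 and 26.1 CPM. In the uninjured flush it had 12.4, 7.05, 2.61, 16.7 and 6.48 CPM in mice E1A, E1B, E1C, E2A and E2B and 0 in E2C, E3A, E3B and E3C, so it was found in all uninjured libraries of batch 1 and in none of batch 3. Tissue had 0 counts. The 48 h range lay below the 3 h range and inside the uninjured one. At 48 h over uninjured the fitted value was -0.22 ± 0.76 (edgeR adjusted p = 0.828), with 5 of 9 mice higher in the injured segment, and within batch 3, where uninjured libraries were at 0, it was 7.62 (edgeR adjusted p = 0.0477). At 3 h over uninjured it was 2.35 ± 0.87 (edgeR adjusted p = 0.0465). Within batches 1, 2 and 3 it was 1.88, 1.59 and 10.2, and batches 1 and 2 did not pass (edgeR adjusted p = 0.224 and 0.644). At 48 h over 3 h it was -2.58 ± 0.86 (edgeR adjusted p = 0.0379). Within batches that value was -3.15, -2.06 and -2.56, and batches 1 and 2 did not pass (edgeR adjusted p = 0.0767 and 0.544). Both calls sat at the threshold. The 3 h call was lost with RLE scaling, with library totals, with no filter and in a fit of the 2 groups alone (edgeR adjusted p = 0.0552, 0.0599, 0.0512 and 0.104). The call between 48 h and 3 h was lost with library totals and with a batch term (edgeR adjusted p = 0.0512 and 0.0553). Leaving out 1 library lost the 3 h call for 10 of 14 libraries, each of the 5 at 3 h and E1B, E1C, E2B, E3B and E3C of the uninjured ones (2.18 to 2.47, edgeR adjusted p = 0.0523 to 0.0911). It lost the call between 48 h and 3 h for 10 of 14, namely C1A, C1B, C2A and C3B at 3 h and E1A, E1B, E1C, E2C, E3A and E3C at 48 h (-2.64 to -2.45, edgeR adjusted p = 0.0549 to 0.0799). Against the tissue group at 0, Gp6 was at least 50.8-fold higher at 48 h, at least 330-fold higher at 3 h and at least 48.6-fold higher in the uninjured flush.

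Set against the vessel wall, some of the 8 tested genes were higher and some lower. With 8 genes, counts of 1 or 2 lie near the shares of all tested genes given beside them and are only a description. In the injured 48 h flush, 2 were higher than in tissue (Ppbp and Gp6), against 22.0% of all tested genes, and 2 were lower (Itgb3 and Gp1bb), against 13.5%. In the 3 h flush, 5 were higher (Ppbp, Gp1ba, Gp9, Gp6 and P2ry12), against 23.5%, and Gp1bb was lower, against 19.2%. Gp9 and P2ry12 passed there at 4.85 ± 1.89 and 2.37 ± 0.88 (edgeR adjusted p = 0.0405 and 0.0311), and each call was lost without any 1 of the 3 tissue libraries or without C2A or C3B at 3 h (edgeR adjusted p = 0.0504 to 0.147 for Gp9 and 0.0501 to 0.109 for P2ry12). The Gp9 call was also lost with no filter (edgeR adjusted p = 0.0668) and with DESeq2 (adjusted p = 0.0649). In the uninjured flush, Gp1ba and Gp6 were higher, against 25.6%, and Pf4, Itgb3, Gp1bb and P2ry12 were lower, against 24.5%. Pf4 was at least 92.2-fold lower in the uninjured flush than in tissue, Itgb3 was lower by -3.02 ± 0.33 and P2ry12 by -4.31 ± 0.81 (edgeR adjusted p = 4.15e-08 and 1.00e-04). The tissue libraries came from 3 of the 48 h mice and were the deepest, and fraction and depth cannot be told apart.

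Counted by ranges that do not overlap, 3 of the 8 tested genes (Pf4, Ppbp and P2ry12) lay wholly above uninjured at 48 h, against 6.19% of all tested genes, and 1 (Gp1ba) wholly below, against 2.09%. At 3 h 4 of the 8 (Pf4, Ppbp, Itgb3 and P2ry12) lay wholly above uninjured, against 5.93%. At 48 h 3 of the 8 (Ppbp, Gp1ba and Gp6) lay wholly below 3 h, against 4.39%.

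The genes also varied among libraries of a group. Over 23 flush libraries, as deviations from group means, the 28 pairwise Pearson correlations of log2 CPM among the 8 tested genes ran from -0.45 (Ppbp and P2ry12) to 0.40 (Pf4 and P2ry12). These points share libraries and depth. In the 9 uninjured libraries, Pf4 and Gp1bb were at 0 in all, Gp9 in 8 and P2ry12 in 7. Deviations are fixed or nearly fixed there, so the correlations cannot tell whether genes so often at 0 moved together. At 48 h the libraries of mice E2A, E3B and E2B were the top of the group for Pf4 (24.3, 16.5 and 13.4 CPM) and for P2ry12 (31.4, 18.7 and 13.9 CPM). The summed level of 12 macrophage markers was highest in the same libraries, at 5606, 3245 and 2744 CPM, against 619 to 1548 CPM in the other 6. Ppbp was highest in E3B and E1A (238 and 148 CPM) and Itgb3 in E3B and E1B (276 and 245 CPM). Between the injured groups, the macrophage sum had medians of 1202 CPM at 48 h and 283 CPM at 3 h. In the same order the medians were 9.23 and 9.69 CPM for Pf4 and 8.79 and 36.0 CPM for P2ry12. A link of these genes to the macrophage markers was not tested. At 3 h the library of C3B had the highest Pf4, Ppbp, P2ry12, Itgb3, Gp1ba and Gp9 of its group, and C2C had the lowest Ppbp, P2ry12, Itgb3 and Gp6. C3B also had the highest summed neutrophil and macrophage markers at 3 h (6106 and 1017 CPM).

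Markers of other blood cells also differed between the groups, and their part in these results was not tested. Summed over 9 erythroid markers, the level ran from 112.6 to 492.9 CPM at 48 h, from 280 to 3196 CPM at 3 h, from 44.4 to 457 CPM in uninjured and from 3.99 to 17.9 CPM in tissue libraries. Over 13 neutrophil markers it ran from 135 to 697, from 258 to 6106, from 46.4 to 241 and from 4.36 to 10.9 CPM in the same order, and over 12 macrophage markers from 619 to 5606, from 217 to 1017, from 98.2 to 264 and from 687 to 862 CPM. By test, 1 of 9 erythroid, 7 of 12 neutrophil and 10 of 11 macrophage markers were higher at 48 h than in uninjured libraries, with 0, 1 and 0 lower, against 24.6% of all tested genes higher and 18.0% lower. At 3 h 7 of 9, 11 of 12 and 4 of 11 were higher and 0 lower, against 16.1% and 11.1%. Between the injured groups, 6 of 9 erythroid and 9 of 12 neutrophil markers were lower at 48 h than at 3 h with 0 higher, whereas 8 of 11 macrophage markers were higher with 0 lower, against 9.70% of all tested genes higher and 8.59% lower. At an unadjusted edgeR p under 0.05 these counts of 0 stayed at 0, except for 1 macrophage marker lower at 3 h than in uninjured libraries. Of 10 smooth muscle markers, 7 were higher at 48 h and 6 at 3 h than in uninjured libraries, and 0 were lower in either, also at an unadjusted p. Of 10 endothelial markers, 2 were higher and 6 lower at 48 h than in uninjured libraries, and 2 were higher and 2 lower at 3 h. The platelet genes summed to 197 to 580 CPM at 48 h, 658 to 1389 CPM at 3 h, 81.0 to 176 CPM in uninjured and 347 to 533 CPM in tissue libraries. Itgb3 was the largest part of the tissue sum, at 296 to 480 CPM, and Ppbp of the 3 h sum, with a mean of 608 CPM. The uninjured sum was mostly Gp1ba and Itgb3, with means of 69.0 and 45.7 CPM. These sums therefore stand for different genes in different groups. The erythroid marker Slc4a1, the neutrophil markers Camp and Hdc and the macrophage marker C1qa were at 0 in every uninjured library, C1qa was at 0 in every 3 h library, and Rhag and Camp were at 0 in tissue.

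**Figure D4:**
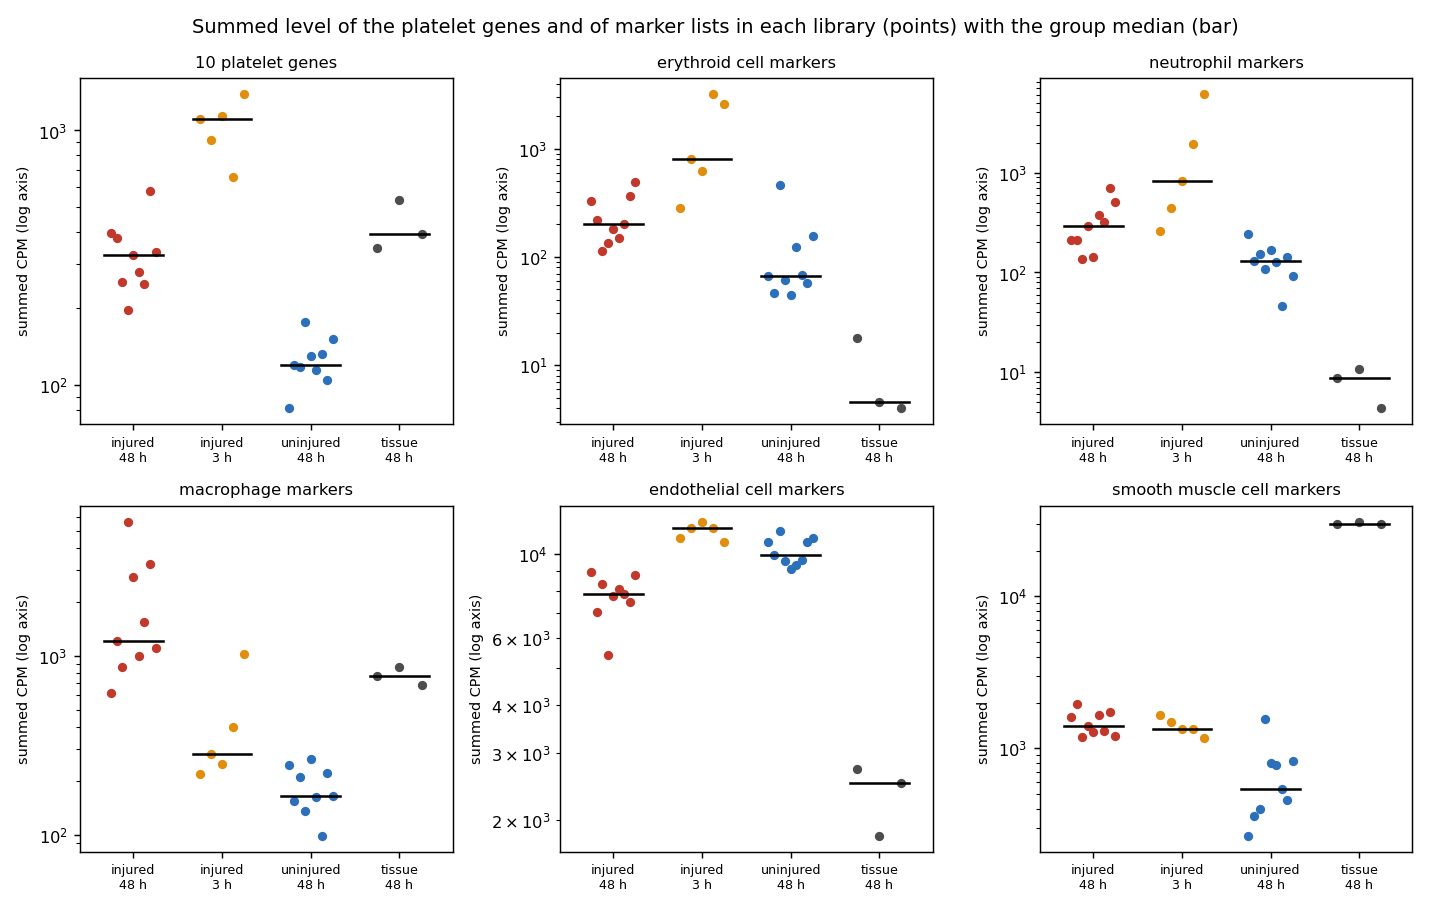
Summed CPM (log axes) of the 10 platelet genes and of 5 marker lists in every library, by group, with the group median as a bar. Platelet genes, erythroid markers and neutrophil markers have their highest median at 3 h, macrophage markers at 48 h, and smooth muscle markers in tissue. The genes that make up most of the platelet sum differ between groups.

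Other genes of platelet biology were followed as 5 lists, and most of them are also transcribed in endothelial, smooth muscle or white blood cells. The counts below are set against the same share of all tested genes as above (24.6% higher and 18.0% lower at 48 h, 16.1% and 11.1% at 3 h, both over uninjured). Among 10 tested platelet receptors, 4 rose and 3 fell at 48 h, and 3 rose and 1 fell at 3 h. F2rl2, a thrombin receptor of the protease-activated family, rose by 3.63 ± 0.98 at 48 h and 5.74 ± 1.09 at 3 h on the log2 scale, and the adrenergic receptor Adra2a by 1.15 ± 0.25 and 0.81 ± 0.28. P2ry1, the ADP receptor that starts platelet shape change, fell by 1.05 ± 0.21 and 1.63 ± 0.27, and the podoplanin receptor Clec1b fell by 1.11 ± 0.19 at 48 h. P2rx1, an ATP-gated cation channel, rose at both times, with 107 counts at 48 h (2 libraries at 0), 26 at 3 h (2 libraries at 0) and 3 in uninjured libraries, all in 1 library. Its ratio over uninjured was 12.7 at 48 h (exact 95% counting interval 4.24 to 62.7) and 15.1 at 3 h (4.64 to 78.2).

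Of 11 granule cargo genes, 4 rose and 2 fell at 48 h, and 8 rose and 0 fell at 3 h. Mmrn1, a factor V carrier, had 0 counts in uninjured libraries and was at least 76.9-fold higher at 48 h and at least 251-fold higher at 3 h. F13a1, the fibrin cross-linking subunit that macrophages also make, rose by 3.90 ± 0.54 at 48 h and 2.61 ± 0.58 at 3 h. Vwf, the ligand of the GPIb-IX-V complex and an endothelial product, fell by 0.51 ± 0.11 at 48 h. The growth factor chain Pdgfa fell by 0.47 ± 0.12 at 48 h and rose by 0.41 ± 0.14 at 3 h, and Selp (P-selectin) rose by 1.10 ± 0.22 and Tgfb1 by 2.00 ± 0.42 at 3 h.

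Of 12 genes of receptor and integrin signalling, 9 rose and 1 fell at 48 h, and 7 rose and 0 fell at 3 h. The kinase Syk averaged 29.5 ± 11.3 CPM (SD, n = 9) at 48 h and 37.7 ± 43.8 CPM (n = 5) at 3 h, and uninjured libraries held 1 count of it, which put the ratio at 739 for 48 h (exact 95% counting interval 133 to 29218) and 1134 for 3 h (203 to 44873). Fcer1g, the signalling partner of Gp6, rose by 3.09 ± 0.38 and 2.24 ± 0.41, the integrin activator Rap1b by 1.02 ± 0.13 and 1.35 ± 0.15, and talin (Tln1) by 0.56 ± 0.08 and 0.43 ± 0.09. Of 10 genes of cytoskeleton, granule biogenesis and eicosanoids, 5 rose and 1 fell at 48 h, and 6 rose and 0 fell at 3 h. The protein kinase C substrate Plek rose by 2.72 ± 0.31 and 3.71 ± 0.34, the myosin light chain Myl9, which is also a smooth muscle gene, by 1.90 ± 0.33 and 2.63 ± 0.37 and Bin2 by 3.62 ± 0.64 and 3.98 ± 0.69. The platelet lipoxygenase Alox12 averaged 49.5 ± 15.7 CPM (SD, n = 5) at 3 h and 0.776 ± 1.82 CPM (n = 9) in uninjured libraries, and the thromboxane synthase Tbxas1 rose by 5.91 ± 0.87 at 48 h and was at 0 counts at 3 h.

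Of 4 tested megakaryocyte transcription factors, 2 rose and 1 fell at 48 h, and 2 rose and 0 fell at 3 h. Nfe2, which drives platelet release, rose at both times over the 3 counts of uninjured libraries, by a ratio of 13.4 at 48 h (exact 95% counting interval 4.49 to 66.2) and 61.8 at 3 h (20.6 to 304). The factors Gata1 and Gfi1b, which were not tested, had 0 counts in all 23 flush libraries. Runx1, which is also used by white blood cells, had 0 counts in uninjured libraries and was at least 323-fold higher at 48 h and at least 132-fold higher at 3 h. Fli1, an ETS factor of endothelium and megakaryocytes, fell by 0.41 ± 0.11 at 48 h, and its 3 h value was 0.00 ± 0.13. Tal1, a factor of the erythroid and megakaryocyte lineages, was at -0.34 ± 0.15 and 0.08 ± 0.18 and did not pass at either time. At 3 h the 4 lists with 0 genes lower also had 0 at an unadjusted edgeR p under 0.05, except for 1 gene of the cytoskeleton list. Each rise and fall named in these lists passed in edgeR at an adjusted p under 0.05 in the contrast given.

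**Figure D5:**
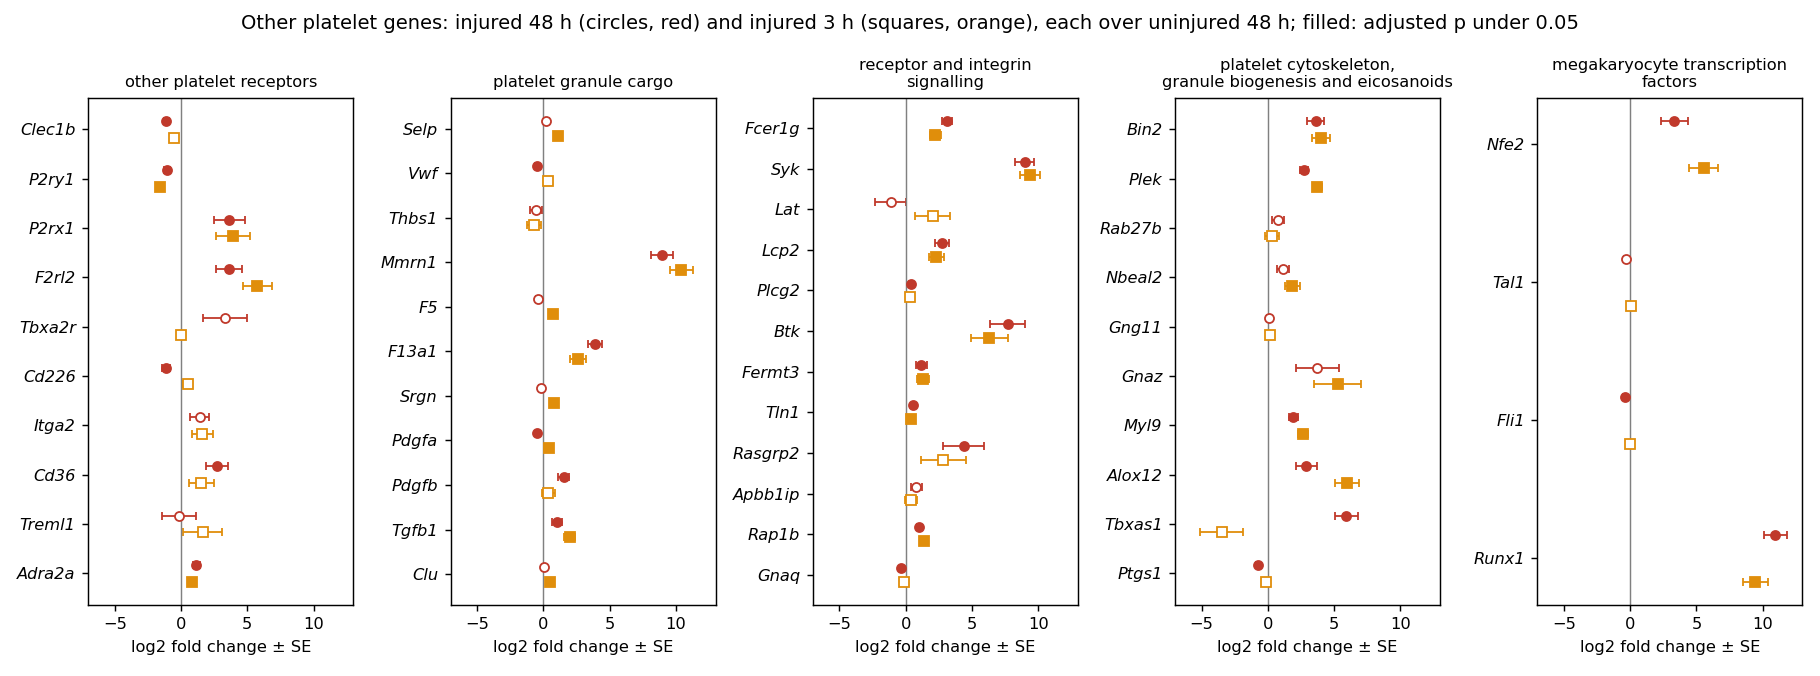
Fitted log2 fold change with its SE (edgeR) for the tested genes of 5 platelet lists at 48 h (circles) and 3 h (squares), each over uninjured, filled where the adjusted p is under 0.05. Genes above and below 0 occur in each list at 48 h, and 1 tested gene of all 5 lists, P2ry1, is filled to the left of 0 at 3 h.

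By library-to-library likeness over the 23 flush libraries, the genes closest to the mean of the 8 tested platelet genes were Catsper4 (Pearson r = 0.76), Hpcal1, Wasf2, Zfp608, Mfhas1, Spg21, Hsf5 and Cdc5l (r = 0.69). The measure is the correlation of deviations from group means in log2 CPM, chosen as the highest among all tested genes. None of the 8 is in the platelet lists, and the top 8 of each single platelet gene held 0 genes of those lists. The 5 lists hold only 10, 11, 12, 10 and 4 of the 13884 tested genes. Counts of 0 are therefore likely for any 8 genes, and nothing is read from them.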

How the data were processed

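RNA of 26 mouse aorta libraries (NuGEN Ovation Ultralow V2 kit, per the labels' protocols) was measured as read counts per gene. The authors' deposited table holds whole-number counts; per the submitters' processing notes, HISAT2 2.0.3, HTSeq and DESeq2 1.14.1 were used with build GRCm38. Annotation, strand setting and treatment of shared reads: not given in the sources used here. The authors' deposited comparison tables hold log2 fold changes and adjusted p-values, quoted only where named.

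All counts entered 1 fit in edgeR 4.0.16 (R 4.3.3; quasi-likelihood test, TMM, filter by group, Benjamini-Hochberg over 13884 genes, two-sided, threshold 0.05, no covariate). SEs come from the F statistic. CPM are TMM scaled, and log2 CPM use a prior count of 2. Exonic lengths and overlaps come from GENCODE M21, promoters from RefSeq. Against a group at 0, folds are bounds from 3 counts over the whole group; with 1 to 3 counts, ratios carry an exact 95% interval. Without molecular identifiers, intervals and floors cover counting error only. Replicates are separate mice. Alternatives were RLE scaling, library totals, no filter, the 2 groups alone, a batch term, single batches, DESeq2 1.42.0, leaving out each library, and the mouse as a block. The pairing of injured and uninjured 48 h libraries comes from the labels (same mouse). Their deviations from group means correlated at -0.13 to 0.21 over 9 pairs, with a median of -0.01. Of the 9 injured libraries, 0 correlated best with the uninjured library of the same mouse.

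The genes, the lists and the tests were chosen with earlier results of these data known. The text names the 10 platelet genes, up to 4 genes with the smallest p per platelet list at 48 h and at 3 h over uninjured, and the 8 genes most like the platelet genes. Lists of B, T and NK, and mast cell markers were also summed and had medians of 43.5, 38.0 and 10.5 CPM at 48 h, 114, 103 and 5.08 CPM at 3 h, 13.1, 15.2 and 9.22 CPM in uninjured and 3.98, 4.46 and 39.7 CPM in tissue libraries. Some genes of the lists are not reported here. The code was tested on simulated data.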

Additional observations from a re-analysis of the deposited data

Results flagged for a closer look

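In 22 groups of library values tested with Dixon's criterion, 3 held a library far from the others of its group. The criterion's rate of about 1 in 20 is for continuous values and does not apply to groups with many zeros. A group with 1 library above 0 is always flagged, as for Gp1bb at 3 h and Gp9 in the uninjured flush. Gp1bb in the injured 3 h library of mouse C3B stood at 1.01 CPM (4 counts), and the other 4 libraries of the group were at 0. Gp9 in the injured 48 h library of mouse E1A stood at 1.36 CPM (18 counts), and the other 8 ran from 0 to 0.387 CPM. Gp9 in the uninjured library of mouse E3A stood at 0.534 CPM (3 counts), and the other 8 were at 0.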

How the results depend on the processing

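Of 439 values recomputed under other settings 365 were counted as kept, and of 624 with 1 library left out 577 were. Kept means the same direction and side of the threshold, or a fitted value of 0 that did not pass. Such values of 0 in batch 3 include Gp1bb at 48 h over uninjured and Gp6 for the uninjured flush over tissue. Both had passed in the fit of all libraries. The number of the 8 genes past the threshold at 48 h over uninjured was 6, with 5 to 6 when 1 library was left out, 5 with the mouse as a block, 5 with DESeq2 and 3 in batch 2 alone. At 48 h over 3 h it was 4, with 6 of 10 (Itga2b and Gp5 added) with no filter on low counts, 2 to 5 when 1 library was left out (2 without the 3 h library of C3B), and 2, 1 and 0 within batches 1, 2 and 3. Over tissue it was 4 at 48 h (2, 2 and 1 within batches 1, 2 and 3), 6 at 3 h (2 and 1 within batches 2 and 3) and 6 in the uninjured flush (3 within batch 3). A batch holds 3 injured 48 h, 1 or 2 injured 3 h, 3 uninjured and 1 tissue library, so fewer samples enter each fit.

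Apart from fitted values of 0, the direction changed only in values that did not pass in the fit of all libraries. At 48 h over uninjured, Gp9 was -1.04 in batch 3, and Gp6 was 0.16 with a batch term, 7.62 in batch 3, 1.27 with the mouse as a block and -0.40 to 0.32 when 1 library was left out. At 3 h over uninjured, Gp1ba was 0.31 in batch 1. At 48 h over 3 h, Pf4 was 0.78 in batch 2, and Gp1bb was -5.52 in batch 3 and -0.10 to 4.14 when 1 library was left out. At 48 h over tissue, Pf4 was 0.18 with library totals, 0.65 in batch 2 and -0.31 to 0.12 when 1 library was left out, and Gp9 was -0.23 to 2.15 when 1 library was left out. At 3 h over tissue, Pf4 was -0.13 in batch 2 and Itgb3 0.016 and 0.24 in batches 1 and 3. For the uninjured flush over tissue, Gp9 was 0.14 with DESeq2, 1.29 in batch 3 and -2.62 to 0.84 when 1 library was left out. The cause was not tested.

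The mouse as a block changed the call of Gp1bb at 48 h over uninjured and of Gp1ba at 48 h over tissue, given beside those results, and no other; Gp9 had no value in that fit. Calls changed by other scaling, no filter, DESeq2, a batch term or a fit of 2 groups alone stand beside each gene. Those changed within single batches are not all given. With 1 library left out, Itgb3 at 48 h over 3 h also passed without injured 48 h E3B or without C2C (edgeR adjusted p = 0.0403 and 0.0419). Gp1ba at 48 h over tissue passed without tissue E3A (1.31, edgeR adjusted p = 0.00229). Scaling by library totals alone moved the median log2 fold change of all genes by -0.13 (3 h over uninjured), 0.24 (48 h over 3 h), 0.25 (48 h over tissue) and 0.18 (uninjured over tissue). Gp1bb, Gp9, Gp5 and Itga2b rest on 31 counts or fewer in each flush group apart from Gp9 at 3 h (61), which limits what can be read from a missing call.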
